A study of Mus musculus with 6 samples.

Results

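Transcript levels of 45 lysosomal genes were compared between a pair of progenitor populations sorted by flow cytometry from mouse bone marrow. The 45 genes were taken by symbol and comprise cathepsins and other proteases, glycosidases, sulfatases, lipid hydrolases with their cofactors, and proteins of the lysosomal membrane, without the proton pump. All 45 were found among the 22271 Ensembl genes of the deposited count table, and all 45 passed the filter on low counts that left 12850 genes for testing. One population carries the label CD27 low MOP (3 libraries) and is set against the other, labelled CD27 high MODP (3 libraries). By the title of the series, MOP give macrophages and osteoclasts and derive from MODP, which can also give dendritic cells. All 6 libraries came from C57BL/6JRj mice and their titles carry WT. No treatment is named, and the sources used here state neither the age or sex of the mice nor any pooling of animals.

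The libraries held 10701425 to 15892640 counts. CD27 is a surface receptor of the TNF receptor family, and since it was used for the sort its transcript only checks the labels: Cd27 stood at 4.57, 3.52 and 3.64 counts per 1000000 counts (CPM) in MOP replicates 1 to 3, against 35.4, 38.9 and 38.7 CPM in MODP. Of the marker lists for other marrow cells, the basophil and mast cell list summed to 3509.6 to 5512.4 CPM in MOP, against 572 to 1186.2 CPM in MODP, and the late neutrophil list was highest in replicate 2 of each population. Progenitor genes were present in all 6 libraries. Kit, the stem cell factor receptor gene, stood at 114, 149 and 151 CPM in MOP, against 321, 317 and 377 CPM in MODP. Csf1r, the receptor gene for the macrophage growth factor M-CSF, stood at 564, 472 and 506 CPM in MOP, against 346, 263 and 293 CPM in MODP. Ly6c2, a surface antigen gene of monocytic cells and the most abundant of the progenitor list, stood at 1293.2 to 1340.1 CPM in MOP and 835 to 906 CPM in MODP. No label says that the libraries of a population came from separate animals, so the p-values rest on library-to-library spread that could be technical.

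Lysosomes are acidic compartments in which cells break down proteins, glycans, lipids and nucleic acids. Most soluble lysosomal enzymes are made in the endoplasmic reticulum, tagged with mannose 6-phosphate in the Golgi and carried onward by mannose 6-phosphate receptors, while membrane proteins such as LAMP1 travel by their own sorting signals. Macrophages rely on lysosomes to digest what they engulf, and osteoclasts secrete lysosomal enzymes onto bone. The transcription factors TFEB, TFE3 and MITF bind E-box elements in the promoters of many lysosomal genes.

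Most lysosomal genes were higher in MOP than in MODP, by modest amounts. In bulk libraries, a larger number of cells of one type and more transcript per cell cannot be told apart. Of the 45 members, 29 rose (64.4%), 2 fell (4.44%) and 14 did not pass the test, a quasi-likelihood test in edgeR whose p-values were adjusted over all tested genes by the Benjamini-Hochberg method (threshold 0.05). Over all 12850 genes, 31.2% passed the test, 16.3% as higher and 14.9% as lower in MOP (2095 and 1913 genes). These counts were 1692 and 2452 under upper-quartile scaling, and 2724 and 2544 with the replicate number of the column names as a block. The members' median log2 fold change (MOP over MODP) was 0.35, with single members between -0.87 and 1.38, and the median of all tested genes was -0.01. Differences of at least 2-fold were found in 4 members, namely Psap, Ctsc, Ctss and Ctsh; 3.84% of all tested genes passed the test at this size. All MOP libraries lay above all MODP libraries for 32 members and below them for 2, against 23.8% of all tested genes in each direction. In the fits without 1 library the higher members numbered 22 to 29, with 22 without MOP replicate 1, and the lower members 0 to 2, with 0 without MOP replicate 1, MODP replicate 1 or MODP replicate 3 and 1 without MOP replicate 2 or 3.

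Libraries with the same replicate number in the table's column names deviated together, so each pair can be read on its own. In pairs 1, 2 and 3, MOP was the higher library for 38, 39 and 39 of the 45 members, against 49.4%, 50.4% and 48.3% of all tested genes. The members' median log2 difference within a pair was 0.37, 0.31 and 0.38. Across the pairs 34 members kept MOP higher, 2 (Ctsf and Gaa) kept MOP lower and 9 changed sign. The share of all tested genes that kept their sign across the pairs was not computed, so these counts have no background beside them.

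**Figure D1:**
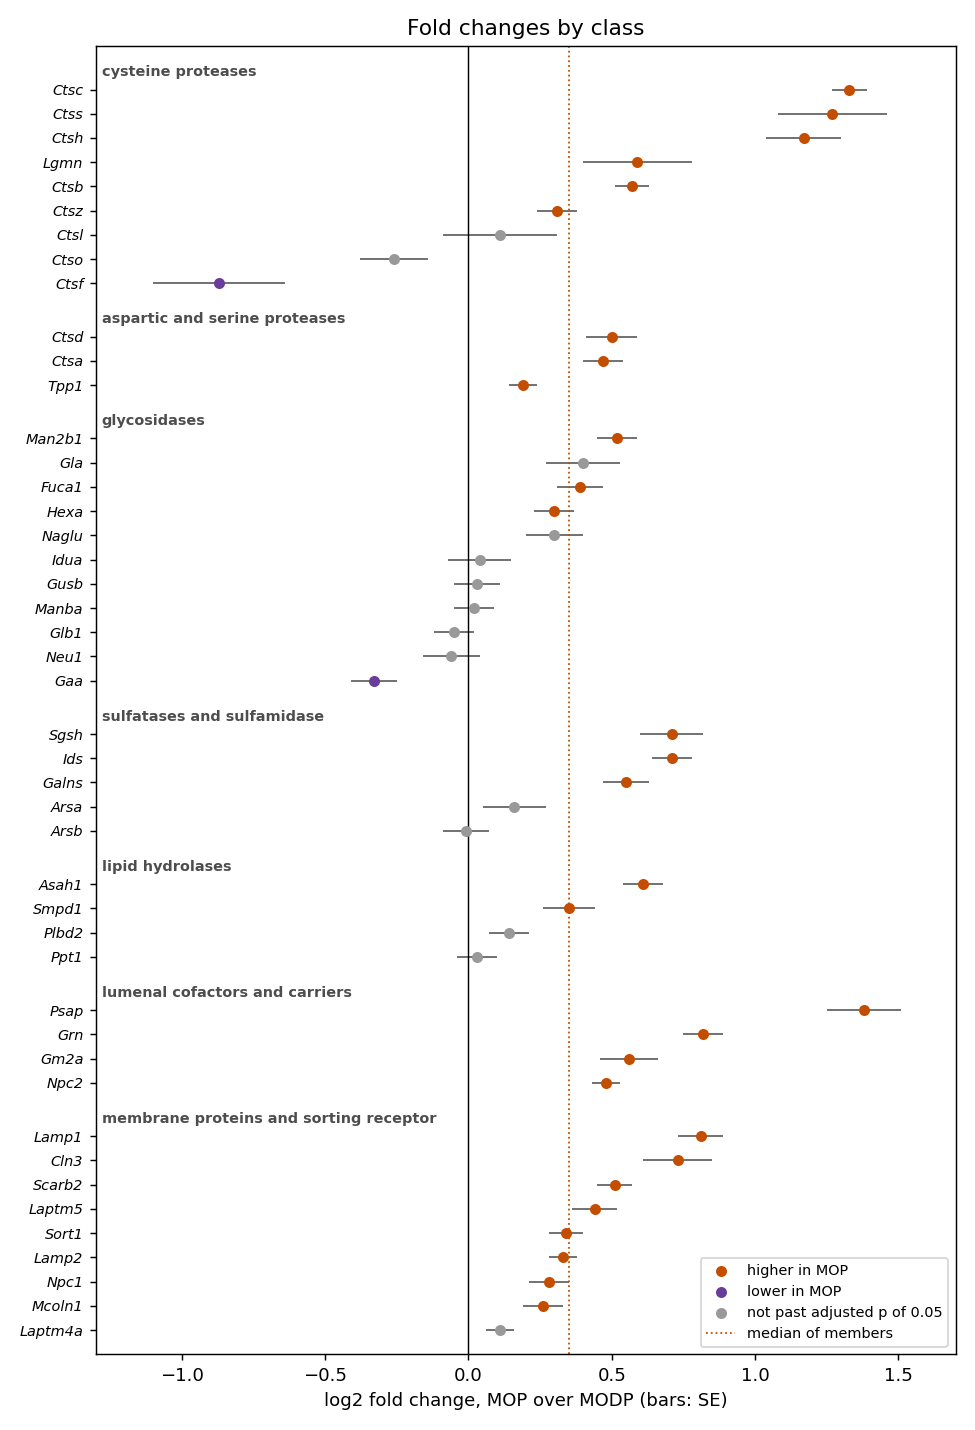
Log2 fold changes (MOP over MODP) of the 45 lysosomal genes with their standard errors, grouped by class and coloured by the test result; the dotted line is their median of 0.35. Cofactors and membrane proteins lie right of 0, whereas many glycosidases cluster around it.

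The lysosomal genes took 1.30% of the scaled counts in MOP and 0.83% in MODP. Their summed level was 13834.1, 12425.1 and 12837.2 CPM in MOP replicates 1 to 3, against 8685.8, 8339.6 and 7875.0 CPM in MODP, a ratio of the means of 1.57. The prosaposin gene Psap alone made up 42.8% of the difference, and the 5 members with the largest differences (Psap, Lamp1, Laptm5, Grn and Ctsb) made up 66.1%. Left out of the sum, Psap leaves 9742.2 ± 371 CPM in MOP and 7036.9 ± 213 CPM in MODP (SD, n = 3 each), a ratio of 1.38.

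Promoter sequences of RefSeq (GRCm38.p6, 250 bases before to 50 after each start) were available for 38 members. The core E-box CACGTG, which reads the same on both strands, occurred in 14 of these 38 members (36.8%), in 7.15% of all 32851 promoters and in 11.9% of the 9643 tested genes that had one. Its match to the longer palindrome TCACGTGA was found in 5 members (13.2%), in 0.974% of all promoters and in 2.22% of the tested genes; the 10-base palindrome of the CLEAR element described for lysosomal genes, which contains both shorter forms, was found in 1 member, Cln3, in 0.326% of all promoters and in 0.799% of the tested genes. A member with more than 1 start was counted if any of its windows held a match. The stretches below stand before the RefSeq start, end before the first exon annotated by GENCODE M21, and show CACGTG in capitals. Lgmn has more than 1 RefSeq start, and its stretch was taken from the only start whose window held CACGTG. The genes shown were chosen to set members that rose (Lamp1, Lgmn, Ctsc) beside a member that did not pass the test (Glb1) and a member that fell (Gaa).
Lamp1: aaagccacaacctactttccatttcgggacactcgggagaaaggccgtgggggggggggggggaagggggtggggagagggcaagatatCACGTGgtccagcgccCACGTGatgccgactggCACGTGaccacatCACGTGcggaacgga
Lgmn: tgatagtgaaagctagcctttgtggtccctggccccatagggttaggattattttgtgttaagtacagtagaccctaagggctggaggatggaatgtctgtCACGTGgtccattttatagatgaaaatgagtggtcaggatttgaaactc
Ctsc: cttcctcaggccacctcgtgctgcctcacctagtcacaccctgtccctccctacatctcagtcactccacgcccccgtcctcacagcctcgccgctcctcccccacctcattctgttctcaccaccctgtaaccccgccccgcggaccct
Glb1: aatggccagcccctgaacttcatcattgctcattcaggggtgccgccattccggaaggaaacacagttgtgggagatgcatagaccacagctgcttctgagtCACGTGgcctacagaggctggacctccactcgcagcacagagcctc
Gaa: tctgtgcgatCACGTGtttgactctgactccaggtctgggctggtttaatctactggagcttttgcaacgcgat
The stretches lie at chr8:13159011-13159160 (plus strand) for Lamp1, chr12:102439093-102439242 (minus strand) for Lgmn and chr7:88277935-88278084 (plus strand) for Ctsc. Those of Glb1 and Gaa lie at chr9:114400928-114401075 and chr11:119267813-119267886, both on the plus strand.

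Lamp1 held 4 matches within its 61 bases nearest the start, the most of any member, while Ctsc, which rose more, held none in its window. Among the 14 members with a match 7 rose, 2 (Ctsf and Gaa) fell and 5 did not pass the test, with a median log2 fold change of 0.35. Of the 24 members without a match 16 rose and 8 did not pass, with a median of 0.34. Among all tested genes with a promoter in the set, 16.3% of those with a match and 17.0% of those without were higher in MOP. For TCACGTGA these shares were 21.5% and 16.8%, and for the CLEAR palindrome 27.3% of 77 genes and 16.8%. A match is a description of the letters and does not show binding.

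**Figure D2:**
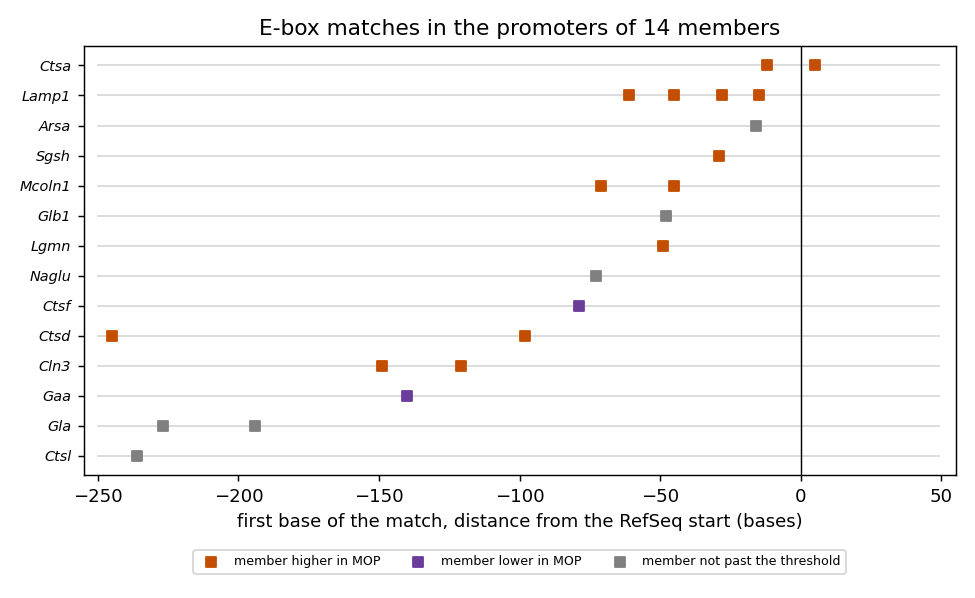
Positions of the core E-box in the RefSeq promoters of the 14 members that hold it, as distance in bases from the start (0), coloured by the test result of the member. Matches of 10 members lie within 100 bases before the start, and members that rose, that fell and that did not pass the test are all among the 14.

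The cysteine proteases comprise 8 cathepsins of the papain family and legumain. Of these 9 genes 6 rose, 1 fell and 2 did not pass, with a median log2 fold change of 0.57. Ctsc encodes dipeptidyl peptidase 1, which trims and so activates serine proteases of granules. It stood at 307, 273 and 304 CPM in MOP replicates 1 to 3, against 120, 119 and 113 CPM in MODP. The populations were far apart, by log2 1.33 ± 0.06 (SE; edgeR adjusted p = 4.3e-05). Ctsh, an aminopeptidase, stood at 253, 213 and 219 CPM in MOP, against 118, 102 and 83.6 CPM in MODP, with a log2 fold change of 1.17 ± 0.13 (SE; edgeR adjusted p = 0.0014). Ctss, an endopeptidase that cleaves the MHC class II invariant chain, stood at 188, 180 and 169 CPM in MOP, against 76.5, 92.7 and 54.7 CPM in MODP. The log2 difference amounted to 1.27 ± 0.19 (SE; edgeR adjusted p = 0.0059), and MODP varied more than MOP, with replicate 3 the lowest. The spread within MODP for Ctsh and Ctss was smaller than the gap to the nearest MOP library.

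Ctsb, among the most abundant of the cathepsins by CPM, rose by less: it stood at 605, 634 and 606 CPM in MOP, against 422, 432 and 388 CPM in MODP, a log2 fold change of 0.57 ± 0.06 (SE; edgeR adjusted p = 0.00047). Ctsz, a carboxypeptidase, and Lgmn, the asparaginyl endopeptidase that processes cathepsins and antigens, also rose, by log2 0.31 ± 0.07 and 0.59 ± 0.19 (SE). The calls of these last genes were less firm. Ctsz lost its call without MOP replicate 1 (edgeR adjusted p = 0.056) and Lgmn in all fits without 1 library except that without MODP replicate 2 (edgeR adjusted p 0.071 to 0.14 in the 5). Ctsf, a cathepsin known for processing the invariant chain in macrophages, was the member that fell and the rarest of the 45, with 36, 56 and 40 counts in MOP, against 70, 47 and 96 counts in MODP. In CPM it stood at 2.65, 3.59 and 3.03 in MOP, against 5.76, 4.42 and 6.75 in MODP. The log2 difference amounted to -0.87 ± 0.23 (SE; edgeR adjusted p = 0.021), and the call was lost without replicate 1 or 3 of either population (edgeR adjusted p 0.067 to 0.083). Ctsl, a broad endopeptidase, and Ctso, a further cathepsin, stayed above the threshold (edgeR adjusted p = 0.72 and 0.14). Ctsl overlapped between the populations, at 24.6 to 35.2 CPM in MOP and 21.9 to 35.2 CPM in MODP, and 29.9% of its 31-base words occur in other annotated genes.

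Cathepsins outside the papain family and a further serine protease all rose. Ctsd, the main aspartic protease of lysosomes, stood at 512, 499 and 486 CPM in MOP, against 352, 396 and 309 CPM in MODP, a log2 fold change of 0.50 ± 0.09 (SE; edgeR adjusted p = 0.0036). Part of this value is uncertain, since 37.1% of the 31-base words of Ctsd occur in an overlapping gene model on the same strand. Ctsa, the protective protein that is also a serine carboxypeptidase, stood at 286, 251 and 261 CPM in MOP, against 196, 199 and 181 CPM in MODP, a log2 fold change of 0.47 ± 0.07 (SE; edgeR adjusted p = 0.0017). Tpp1, a tripeptidyl peptidase, was close in both populations at 121, 114 and 115 CPM in MOP, against 100, 103 and 105 CPM in MODP. It passed the test at log2 0.19 ± 0.05 (SE; edgeR adjusted p = 0.026), but the call was lost in all fits without 1 library except that without MODP replicate 2 (edgeR adjusted p 0.052 to 0.12 in the 5).

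**Figure D3:**
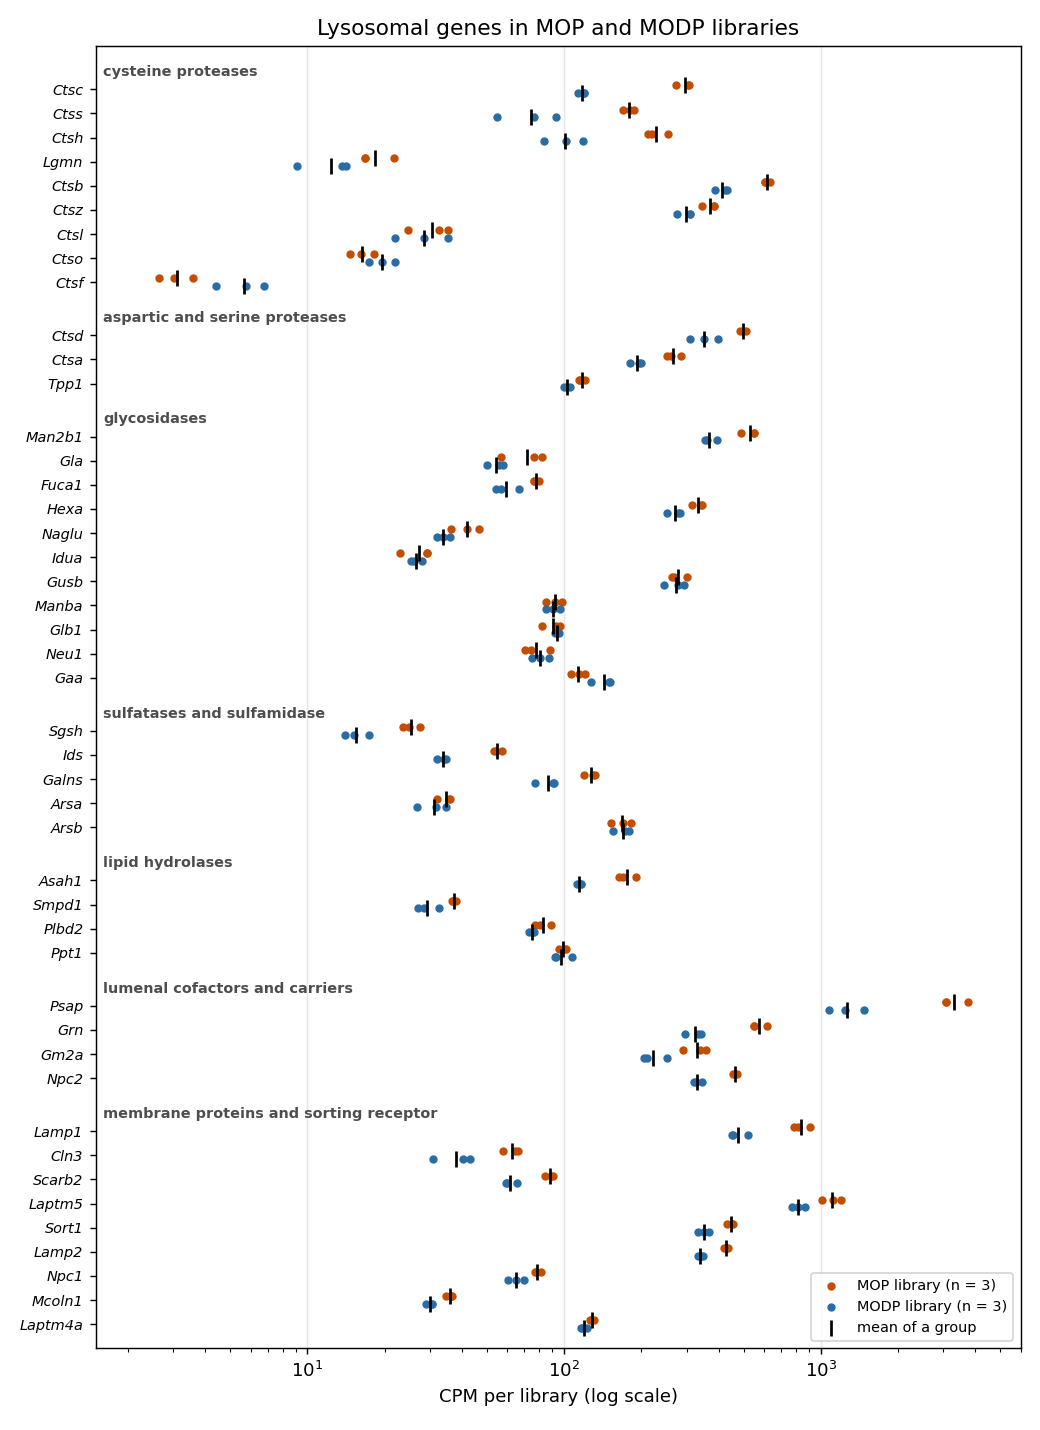
CPM of each lysosomal gene in the 3 MOP and 3 MODP libraries on a log axis, with the mean of each population as a black bar, grouped by class and ordered by fold change within a class. Points of the populations separate fully for Ctsc, Psap, Lamp1, Ids and Asah1 and intermingle for Gusb, Manba and Arsb.

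Glycosidases, which strip sugars from glycoproteins, glycolipids and glycosaminoglycans, were on the whole close in the populations. Of 11 genes 3 rose, 1 fell and 7 did not pass, and the median log2 fold change was 0.04. With 27.3% of the class higher, the share was nearer to the 16.3% of all genes than in the other classes, a difference that was not tested. This holds for the fit without a block. With the replicate number of the column names as a block, Gla and Naglu were also higher, and 2724 of all 12850 tested genes were. Man2b1, the lysosomal alpha-mannosidase, rose most: it stood at 551, 488 and 549 CPM in MOP, against 360, 393 and 353 CPM in MODP, a log2 fold change of 0.52 ± 0.07 (SE; edgeR adjusted p = 0.0013). Fuca1, the alpha-fucosidase, stood at 76.2, 76.6 and 79.5 CPM in MOP, against 54.4, 66.7 and 56.8 CPM in MODP (log2 0.39 ± 0.08, SE; edgeR adjusted p = 0.0092). The hexosaminidase alpha chain gene Hexa rose by log2 0.30 ± 0.07 (SE; edgeR adjusted p = 0.010) and lost its call without MOP replicate 1 (edgeR adjusted p = 0.055).

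Gaa, the acid alpha-glucosidase that degrades glycogen in lysosomes, was lower in MOP. It stood at 114, 106 and 121 CPM in MOP, against 150, 127 and 151 CPM in MODP, so that all MOP libraries lay below all MODP libraries. The log2 difference amounted to -0.33 ± 0.08 (SE; edgeR adjusted p = 0.017). The call was lost without MOP replicate 1 or 2 or MODP replicate 1 or 3 (edgeR adjusted p 0.059 to 0.069). Gusb, the beta-glucuronidase, was the most abundant glycosidase that did not pass, at 267, 264 and 302 CPM in MOP, against 279, 246 and 292 CPM in MODP. The difference was much smaller than the spread (log2 0.03 ± 0.08, SE; edgeR adjusted p = 0.83). Glb1, the beta-galactosidase, stood at 93.0, 82.0 and 96.1 CPM in MOP, against 94.2, 95.3 and 91.9 CPM in MODP (edgeR adjusted p = 0.60). Manba, Neu1 and Idua overlapped too, with log2 fold changes of 0.02, -0.06 and 0.04.

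Calls for the alpha-galactosidase gene Gla and for Naglu, which acts on heparan sulfate, depended on the fit. Gla stood at 82.0, 76.0 and 57.0 CPM in MOP, against 57.6, 55.6 and 50.2 CPM in MODP (log2 0.40 ± 0.13, SE; edgeR adjusted p = 0.059). The populations overlapped only by MOP replicate 3, without which the edgeR adjusted p was 0.0081. Naglu stood at 42.0, 36.3 and 46.7 CPM in MOP, against 33.7, 32.0 and 35.8 CPM in MODP (log2 0.30 ± 0.10, SE; edgeR adjusted p = 0.056), and without MOP replicate 2 the edgeR adjusted p was 0.024. With the replicate number of the column names as a block Gla and Naglu passed as higher (edgeR adjusted p = 0.0040 and 0.011). With the number in the sample titles, which differs for the third pair, Naglu passed and Gla did not (edgeR adjusted p = 0.018 and 0.072).

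Among the sulfatases and the sulfamidase, which remove sulfate from glycosaminoglycans and sulfolipids, 3 of 5 genes rose and 2 did not pass. Ids, the iduronate sulfatase, stood at 57.2, 54.3 and 53.4 CPM in MOP, against 34.1, 34.5 and 32.1 CPM in MODP, with little spread in either. The log2 difference amounted to 0.71 ± 0.07 (SE; edgeR adjusted p = 0.00039). The heparan sulfamidase gene Sgsh stood at 27.5, 23.6 and 24.9 CPM in MOP, against 17.3, 15.2 and 14 CPM in MODP (log2 0.71 ± 0.11, SE; edgeR adjusted p = 0.0025). Galns, which acts on keratan and chondroitin sulfate, stood at 132, 119 and 129 CPM in MOP, against 90.3, 91.3 and 77.1 CPM in MODP (log2 0.55 ± 0.08, SE; edgeR adjusted p = 0.0017). Arsb and Arsa, the arylsulfatases B and A, did not pass the test. Arsb stood at 152, 169 and 183 CPM in MOP, against 155, 179 and 173 CPM in MODP (log2 -0.01 ± 0.08, SE), and Arsa at 32.1 to 36 CPM in MOP and 26.7 to 34.5 CPM in MODP (log2 0.16 ± 0.11, SE). For Arsb 59.4% of the 31-base words occur in other annotated genes, mainly an overlapping noncoding RNA on the other strand, so that its counts are uncertain.

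Lipid hydrolases split evenly: of 4 genes 2 rose and 2 did not pass. Asah1, the acid ceramidase, stood at 191, 169 and 164 CPM in MOP, against 116, 116 and 112 CPM in MODP, a log2 fold change of 0.61 ± 0.07 (SE; edgeR adjusted p = 0.00057). Smpd1, the acid sphingomyelinase, stood at 36.5, 36.9 and 38.0 CPM in MOP, against 28.5, 32.4 and 26.9 CPM in MODP (log2 0.35 ± 0.09, SE; edgeR adjusted p = 0.017). The call for Smpd1 was lost without replicate 1 or 3 of either population (edgeR adjusted p 0.054 to 0.064). Ppt1, the palmitoyl-protein thioesterase, overlapped at 95.9 to 102 CPM in MOP and 92.1 to 107 CPM in MODP (edgeR adjusted p = 0.80). Plbd2, a phospholipase B-like protein, averaged 82.4 ± 6.05 CPM in MOP and 74.9 ± 1.86 CPM in MODP (SD, n = 3 each; edgeR adjusted p = 0.16).

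All 4 lumenal cofactors and carriers rose, with a median log2 fold change of 0.69. Psap encodes prosaposin, the precursor of the saposins that present sphingolipids to their hydrolases, and was the member with the highest level and the largest fold change. It stood at 3729.8, 3062.0 and 3078.1 CPM in MOP replicates 1 to 3, against 1470.7, 1244.4 and 1074.5 CPM in MODP. Replicate 1 was the highest library in each population. The 2.60-fold difference (log2 1.38 ± 0.13, SE; edgeR adjusted p = 0.00088) was held in all fits without 1 library, with a highest edgeR adjusted p of 0.0047.

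Grn, which encodes progranulin, stood at 615, 551 and 551 CPM in MOP, against 333, 341 and 296 CPM in MODP, a log2 fold change of 0.82 ± 0.07 (SE; edgeR adjusted p = 0.00035). Gm2a, the activator that lifts ganglioside GM2 out of the membrane for hexosaminidase, stood at 356, 291 and 338 CPM in MOP, against 252, 210 and 205 CPM in MODP (log2 0.56 ± 0.10, SE; edgeR adjusted p = 0.0056). Npc2, the soluble carrier that hands cholesterol to NPC1, stood at 470, 453 and 463 CPM in MOP, against 344, 322 and 325 CPM in MODP (log2 0.48 ± 0.05, SE; edgeR adjusted p = 0.00052). None of these genes overlapped between the populations.

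Of the 9 membrane proteins, sorting receptor included, 8 rose and 1 did not pass, and all MOP libraries lay above all MODP libraries for each of the 9. Lamp1, a major glycoprotein of the lysosomal membrane and the promoter with 4 E-boxes above, stood at 908, 783 and 814 CPM in MOP, against 520, 451 and 455 CPM in MODP. The difference was 1.76-fold (log2 0.81 ± 0.08, SE; edgeR adjusted p = 0.00039). Its relative Lamp2, which also serves chaperone-mediated autophagy, differed less, at 435, 421 and 427 CPM in MOP, against 331, 340 and 347 CPM in MODP (log2 0.33 ± 0.05, SE; edgeR adjusted p = 0.0018). Scarb2 encodes LIMP2, a membrane protein that also serves as a sorting receptor. It stood at 90.9, 84.4 and 88.8 CPM in MOP, against 65.3, 59.6 and 60.1 CPM in MODP (log2 0.51 ± 0.06, SE; edgeR adjusted p = 0.00096).

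Sort1, the sorting receptor sortilin, stood at 430, 452 and 454 CPM in MOP, against 333, 368 and 352 CPM in MODP (log2 0.34 ± 0.06, SE; edgeR adjusted p = 0.0032). Laptm5, a membrane protein of blood cells, was the second most abundant member by CPM, at 1194.2, 1008.3 and 1119.5 in MOP, against 869, 812 and 771 in MODP (log2 0.44 ± 0.08, SE; edgeR adjusted p = 0.0036). Cln3, a membrane protein lost in juvenile neuronal ceroid lipofuscinosis, rose by log2 0.73 ± 0.12 (SE; edgeR adjusted p = 0.0039). The cholesterol exporter gene Npc1 and Mcoln1, which encodes the calcium channel TRPML1, passed with small differences of log2 0.28 ± 0.07 and 0.26 ± 0.07 (SE; edgeR adjusted p = 0.017 and 0.024). Npc1 lost its call without MOP replicate 1 or MODP replicate 3 (edgeR adjusted p = 0.074 and 0.057). Mcoln1 lost it without replicate 1 or 3 of either population (edgeR adjusted p 0.063 to 0.095). Laptm4a stood at 126, 127 and 131 CPM in MOP, against 117, 123 and 116 CPM in MODP, and did not pass (edgeR adjusted p = 0.13).

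**Figure D4:**
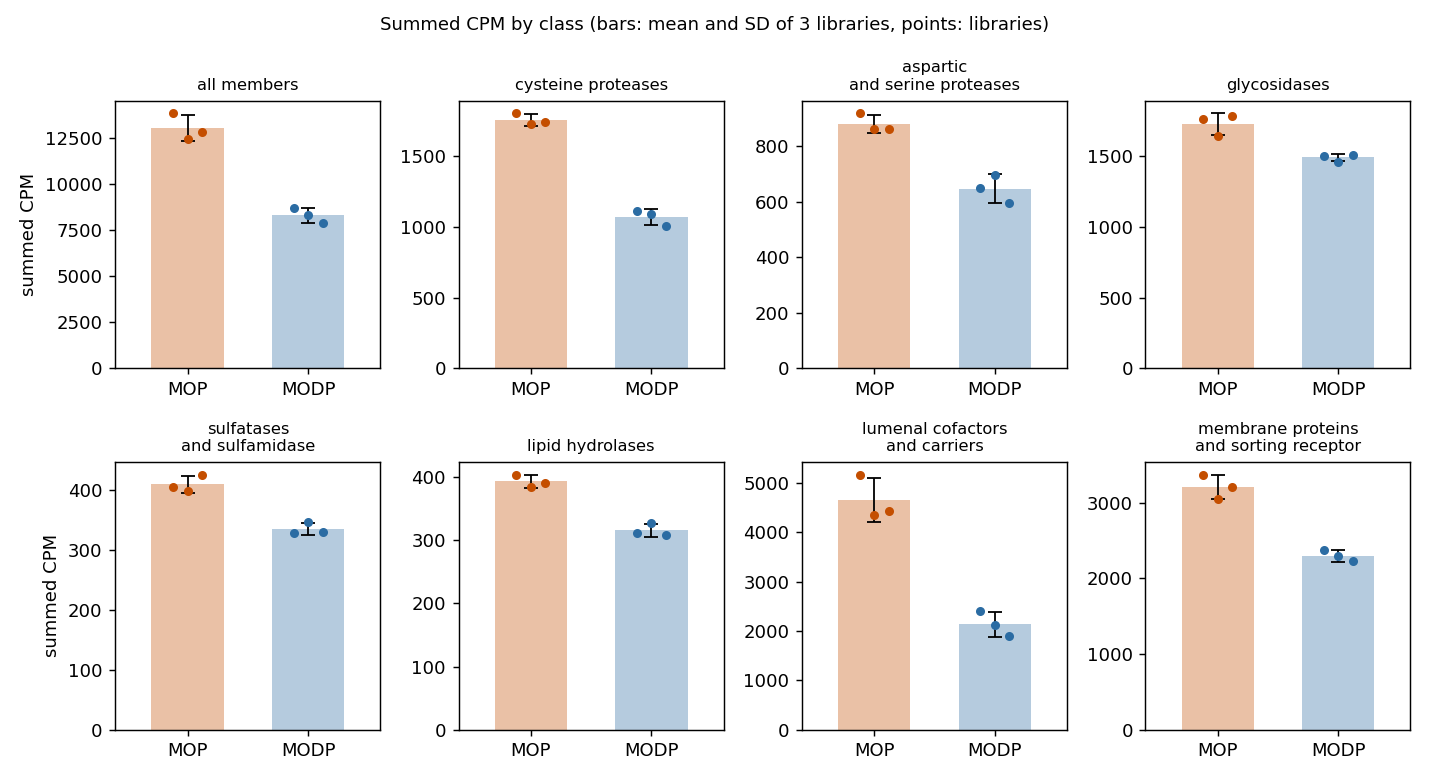
Summed CPM of all 45 lysosomal genes and of each class in MOP and MODP, with bars for the mean, error bars for the SD over 3 libraries and points for the libraries; the y axes differ. The ratio of the means is 2.17 for cofactors and carriers, 1.64 for cysteine proteases and 1.16 for glycosidases.

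Per length of annotated exon, levels differed by orders of magnitude between members. Psap led with 1199 CPM per kilobase in MOP and 460 in MODP. Lamp1, Laptm5, Ctsz and Ctsd followed in MOP, at 312, 292, 257 and 212 CPM per kilobase, and in MODP the same genes stood at 178, 216, 207 and 150. Lamp1 thus ranked above Laptm5 and Ctsz in MOP and below both in MODP. Ctss ranked 8 in MOP, against 12 in MODP. At the other end were Ctsf and Ctso, at 0.613 and 3.19 CPM per kilobase in MOP and 1.12 and 3.82 in MODP. Ctsk, the collagen-degrading cathepsin of mature osteoclasts, was not tested because of low counts; it stood at 0.515, 8.26 and 0.228 CPM in MOP, against 0.0822, 2.63 and 0.0703 CPM in MODP, and was highest in replicate 2 of each population.

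Results differed among genes whose products work together. These partners were picked from known biochemistry after the values had been seen. In the complex of beta-galactosidase, neuraminidase and protective protein, Ctsa rose by log2 0.47, whereas Glb1 and Neu1 had log2 fold changes of -0.05 and -0.06 and did not pass the test. For ganglioside GM2, Hexa and the activator gene Gm2a rose, by log2 0.30 and 0.56. On the path of heparan sulfate, Ids, Sgsh and the acetyltransferase gene Hgsnat rose by log2 0.71, 0.71 and 0.81, while Idua and Gusb stood at 0.04 and 0.03 and did not pass. The differences between partners were not tested.

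Further lysosomal genes on lists written beside the members followed the same direction in part. Of 23 tested hydrolases and lumenal proteins outside the members, 12 rose (52.2%), 2 fell (8.7%) and 9 did not pass, with a median log2 fold change of 0.40. The shares of all tested genes were 16.3% higher and 14.9% lower. Naaa, an acid amidase, stood at 106, 92.0 and 98.4 CPM in MOP, against 19.9, 20.5 and 14.7 CPM in MODP, a log2 fold change of 2.43 ± 0.13 (SE; edgeR adjusted p = 6.3e-05). Ifi30, the lysosomal thiol reductase GILT, stood at 200, 166 and 175 CPM in MOP, against 48.7, 41.2 and 33.9 CPM in MODP (log2 2.13 ± 0.14, SE; edgeR adjusted p = 0.00031). The lower genes were Ctsw, a cathepsin of cytotoxic lymphocytes, and Hyal2, a hyaluronidase, with log2 fold changes of -1.99 and -0.83 (edgeR adjusted p = 0.0059 and 0.019). Hyal2 passed in 3 of the 6 fits without 1 library and lost its call without MOP replicate 1 or 2 or MODP replicate 3. Beside the fall of Ctsw, the summed T and NK cell list was also lower, at 66.7, 106 and 94.7 CPM in MOP, against 222, 282 and 249 CPM in MODP. Most of this sum was Nkg7, with a mean of 85.5 of 89.1 CPM in MOP and 227 of 251 CPM in MODP. The other genes of the list averaged at most 5.24 CPM in either population. Of its 7 tested genes 5 were lower (71.4%, against 14.9% of all tested genes), and 3 without MOP replicate 1 or 3. In the fit blocked by replicate number all 7 were lower, with Cd3d and Gzma added (edgeR adjusted p = 0.0067 and 0.00023). That fit put 2544 of all 12850 tested genes lower. The part of T and NK cells in the value of Ctsw was not tested.

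Of 26 other lysosomal membrane proteins 11 rose (42.3%), 1 fell (3.85%) and 14 did not pass, with a median of 0.29. The shares of all tested genes were 16.3% higher and 14.9% lower. Leaving out MOP replicate 1 or MODP replicate 3 left 7 higher genes. In the fit blocked by replicate number all 11 stayed higher. Mfsd12, Tmem192, Tpcn1 and Slc15a3 were added as higher (edgeR adjusted p = 0.031, 0.033, 0.0045 and 0.012). In that fit 2 genes were lower, the added one being the tetraspanin gene Cd63 (edgeR adjusted p = 0.031, against 0.14 without the block). Of all 12850 tested genes it put 2724 higher and 2544 lower. The macrophage glycoprotein gene Cd68 stood at 73.9, 68.1 and 72.1 CPM in MOP, against 35.3, 39.5 and 32.3 CPM in MODP (log2 1.00 ± 0.09, SE; edgeR adjusted p = 0.0003). Mfsd1, a lysosomal transporter, rose by log2 0.42 ± 0.06, and Ostm1, the partner of the chloride exchanger CLC-7, by 0.48 ± 0.07 (SE; edgeR adjusted p = 0.0015 and 0.0023). The lower gene was Laptm4b, a relative of Laptm4a, with a log2 fold change of -0.82 ± 0.14 (SE; edgeR adjusted p = 0.0036). Laptm5 rose, Laptm4a did not pass and Laptm4b fell, so the genes of this family differed in their results.

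Of 28 tested genes that tag and deliver lysosomal enzymes 12 rose (42.9%), 3 fell (10.7%) and 13 did not pass, with a median log2 fold change of 0.13. Over all tested genes 16.3% were higher and 14.9% lower, so the share of lower genes was no larger here. Without MODP replicate 1 the count of higher genes was 7, and that of lower genes was 1 without MOP replicate 1 or 2 or MODP replicate 1 or 3. Sumf1, which activates sulfatases, stood at 49.3, 47.4 and 45.4 CPM in MOP, against 33.3, 34.5 and 30.1 CPM in MODP (log2 0.54 ± 0.08, SE; edgeR adjusted p = 0.0018). Vps26a, a retromer subunit, and Ap1b1, an adaptor subunit, rose by log2 0.35 and 0.38 (edgeR adjusted p = 0.0019 and 0.0022). The lower genes were Gga2, Sumf2 and Vps39, with log2 fold changes of -0.44, -0.37 and -0.20. Gga2 passed in all 6 fits without 1 library, Sumf2 in 2 and Vps39 in 1. Of the mannose 6-phosphate receptors, M6pr stood at 412, 415 and 388 CPM in MOP, against 368, 340 and 359 CPM in MODP (log2 0.19 ± 0.06, SE; edgeR adjusted p = 0.032), and passed in 2 of the 6 fits without 1 library. Igf2r peaked in replicate 2 on both sides and stayed far from the threshold (edgeR adjusted p = 0.97), at 10.8, 35.1 and 17.1 CPM in MOP, against 13, 41.7 and 11.7 CPM in MODP.

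Among 19 regulators of lysosomal genes 6 rose (31.6%), 1 (Rptor) fell (5.26%) and 12 did not pass. Of all tested genes 16.3% were higher and 14.9% lower. Tfeb stood at 49.5, 46.7 and 46.0 CPM in MOP, against 28.0, 32.0 and 23.0 CPM in MODP (log2 0.78 ± 0.12, SE; edgeR adjusted p = 0.0020), and Tfe3 rose by log2 0.89 ± 0.10 (SE; edgeR adjusted p = 0.00056). Mitf averaged higher in MOP by log2 0.30 ± 0.10 (SE) without passing the test (edgeR adjusted p = 0.057), and with the replicate number as a block it passed (edgeR adjusted p = 0.031). Lamtor1, a subunit of the Ragulator complex that anchors mTORC1 at lysosomes, rose by log2 0.34 ± 0.06 (SE; edgeR adjusted p = 0.0040). Rptor, the raptor subunit of mTORC1, had a log2 fold change of -0.23 ± 0.07 (SE; edgeR adjusted p = 0.045) and passed only in the fit without MODP replicate 2 among the 6 fits without 1 library. The fit blocked by replicate number put 2 regulators lower, adding the kinase gene Mtor (edgeR adjusted p = 0.046, against 0.089 without the block). Beside Mitf, it added Fnip1 as higher (edgeR adjusted p = 0.0073, against 0.054 without the block). Of all 12850 tested genes it put 2724 higher and 2544 lower.

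Marker lists of other cells differed in direction. Their median log2 fold changes ran from 3.10 for basophils and mast cells to -2.71 for T and NK cells, with late neutrophils at -0.16 and B cells at -0.91. On the basophil and mast cell list 10 of 11 tested genes were higher in MOP (90.9%, against 16.3% of all tested genes). In the fit blocked by replicate number 5 were, against 2724 of all 12850 tested genes. The list summed to 4724.6, 3509.6 and 5512.4 CPM in MOP, against 614, 1186.2 and 572 CPM in MODP. The most abundant gene of that list, the basophil protease gene Prss34, stood at 2422.8, 1792.2 and 2923.2 CPM in MOP, against 184, 504 and 147 CPM in MODP (log2 3.10 ± 0.62, SE; edgeR adjusted p = 0.025). Prss34 passed in 1 of the 6 fits without 1 library and missed the threshold in the fit blocked by replicate number (edgeR adjusted p = 0.093). The 5 genes that were higher in the blocked fit, Cd200r3, Il6, Il4, Cyp11a1 and Cpa3, passed in all 6 fits without 1 library. The mast cell protease genes Tpsb2, Cma1 and Mcpt4 were at 0 to 0.128 CPM in MOP and at 0 to 0.282 CPM in MODP. The part of basophils in the lysosomal differences was not tested.

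Mature macrophage markers summed to 163, 324 and 257 CPM in MOP replicates 1 to 3, against 161, 235 and 141 CPM in MODP. The ranges overlapped, and MOP was higher within each of the 3 pairs. The most abundant of them, the iron exporter gene Slc40a1, stood at 35.3 to 86.4 CPM in MOP and 38.9 to 66.6 CPM in MODP. Of 9 tested genes on that list 1 (Adgre1, the F4/80 antigen gene) rose (11.1%, against 16.3% of all tested genes). In the fit blocked by replicate number 3 were higher, with Mrc1 and C1qb added (edgeR adjusted p = 0.0032 and 0.019), against 2724 of all 12850 tested genes. Without MOP replicate 1 the count was 4 and without MODP replicate 2 it was 2. The scavenger receptor gene Marco stood at 0.0758 to 0.368 CPM in MOP and 0.0703 to 0.188 CPM in MODP. Late neutrophil genes also overlapped, with sums of 2820.2, 11684.2 and 5000.5 CPM in MOP, against 3584.9, 16734.2 and 2170.0 CPM in MODP. Their most abundant gene, S100a9, had an edgeR adjusted p of 0.93. Without both replicate 2 libraries 29 lysosomal genes were higher and 3 were lower in MOP, the added one being Ctso (log2 -0.43, edgeR adjusted p = 0.034). On the erythroid list 4 of 10 genes rose (40%, against 16.3% of all tested genes), and 2 without MOP replicate 1 or MODP replicate 1. Erythroid sums were 432 to 765 CPM in MOP and 170 to 630 CPM in MODP. Slc4a1, the anion exchanger gene of red cells and the most abundant of that list, stood at 107 to 190 CPM in MOP and 51.9 to 134 CPM in MODP (edgeR adjusted p = 0.30, and 0.0042 with the replicate number as a block). B cell sums were 39.9 to 82.2 CPM in MOP and 46.4 to 139 CPM in MODP, with Cd79b the most abundant gene (edgeR adjusted p = 0.28). Of the 8 tested genes of that list 0 passed without a block. In the fit blocked by replicate number 4 (Pax5, Vpreb1, Igll1 and Blnk) were lower, against 2544 of all 12850 tested genes. The part of these other cells in the lysosomal values was not tested.

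**Figure D5:**
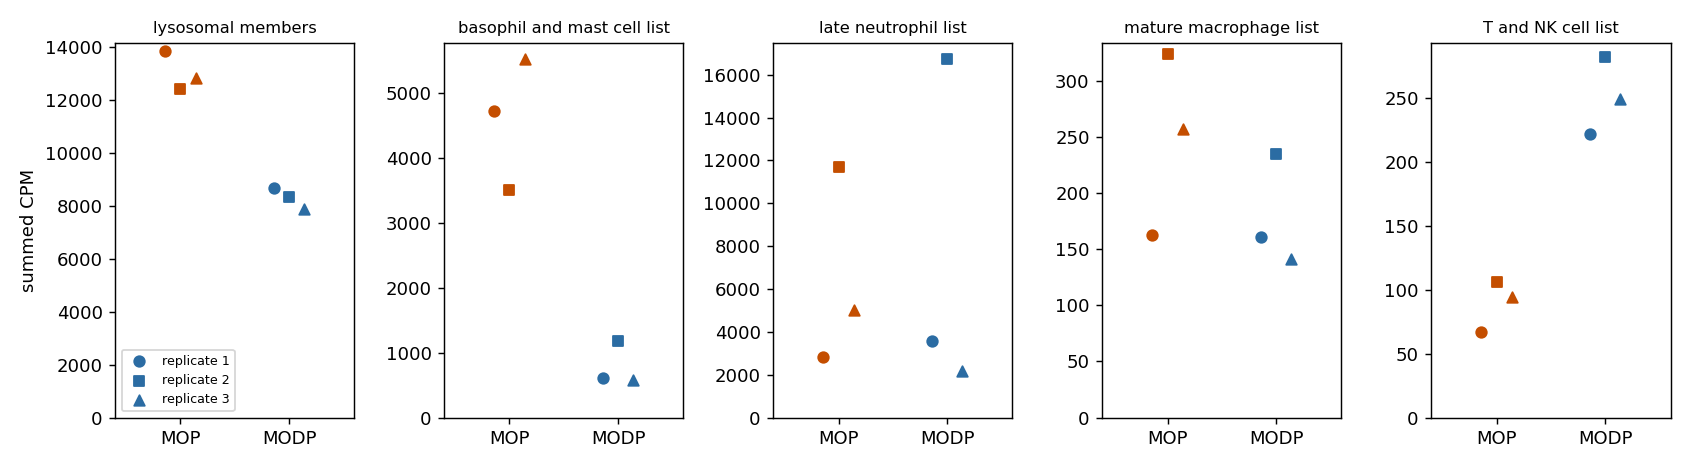
Summed CPM of the 45 lysosomal genes and of 4 marker lists for other cells in each library, with a symbol for each replicate number; the y axes differ. Lysosomal and basophil sums are higher in all MOP libraries than in all MODP libraries, and late neutrophil sums are highest in replicate 2 of each population. T and NK cell sums, which are mostly Nkg7, are lower in MOP.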

How the data were processed

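Total RNA of sorted cells was extracted with TriZol and made into TruSeq libraries, per the labels' protocols. The deposited table holds raw read counts per Ensembl gene, for which TopHat 1.4 and HTSeq are named in the submitters' processing notes. The sources used here do not state the genome build, annotation or strand setting, so reads of overlapping genes on opposite strands cannot be told apart. Symbols came from GENCODE M21, which matched 20840 of the 22271 identifiers. Exon lengths and the share of 31-base words found in other genes' transcripts came from the same annotation.

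Counts were tested with edgeR 4.0.16 (filterByExpr, TMM factors, robust quasi-likelihood test, group as the sole factor, Benjamini-Hochberg adjustment over 12850 genes, threshold 0.05) and checked on simulated data. CPM values use TMM-scaled library sizes. Standard errors are the log2 fold change divided by the square root of the quasi-likelihood F. Within-pair differences are log2(CPM + 0.5). Alternatives were RLE and upper-quartile factors, DESeq2 1.42.0, other filters, replicate blocks and fits without libraries.

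Groups follow the cell type label. Replicates follow the numbers in the column names, 1 to 3; the sample titles give WT1, WT2 and WT1 instead. Over 9351 genes, deviations from the group means correlated at 0.59, 0.61 and 0.51 between libraries of the same column number and at -0.45 to 0.05 between others, so the numbers were taken as pairs. For libraries of one group compared pairwise, chi-square was at least 7.35 per degree of freedom, more than a library sequenced again would give. This check cannot tell separate libraries of the same animals or RNA from libraries of different animals. The lowest values, 7.35 in MODP and 8.76 in MOP, were between replicates 1 and 3, whose titles share WT1. The members and lists were chosen with earlier results of these data known. The rule for named genes took, per class, up to 4 members that passed by smallest adjusted p, up to 2 of the most abundant that did not and all lower ones; per pathway list up to 3 that passed and all lower ones; Tfeb, Tfe3, Mitf, M6pr, Igf2r, Cd27, Kit and Csf1r; and the most abundant gene of each marker list. Other genes were named after their values were seen. A gene that the rule took on a pathway list is not reported here. Motifs were searched in RefSeq promoters by exact match. Promoters of Asah1, Ctsb, Ctsh, Galns, Npc1, Plbd2 and Sort1 were not used here.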

Additional observations from a re-analysis of the deposited data

How the results depend on the processing

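The count of 29 higher members stayed at 24 or more in all alternatives except that without MOP replicate 1, and was 26 under upper-quartile scaling, 29 with DESeq2 and 31 with the replicate number as a block (30 with the title number). Over all tested genes the block by column number gave 2724 higher and 2544 lower genes, against 2095 and 1913 without a block. The block by title number gave 2517 and 2309. Fits without 1 library gave 22 to 29 higher and 0 to 2 lower members, and 1281 to 2524 higher and 1036 to 2275 lower genes among all tested, the lowest counts coming from the fit without MOP replicate 1; without MODP replicate 1, 1264 genes were lower. The members' median log2 fold change was 0.29 under upper-quartile scaling, where the median of all genes was -0.06, and 0.37 without both replicate 2 libraries; it was 0.33 to 0.41 in the fits without 1 library. Under upper-quartile scaling 1692 genes were higher and 2452 lower, against 2095 and 1913. No member changed sign with a call in any alternative. Calls were lost for 3 members under upper-quartile scaling (Lgmn, Tpp1 and Mcoln1; edgeR adjusted p = 0.057, 0.085 and 0.059), for Mcoln1 with DESeq2 (adjusted p = 0.069) and for Tpp1 without a filter (edgeR adjusted p = 0.055), and Lgmn lost its call without both replicate 2 libraries (edgeR adjusted p = 0.057). The replicate block by column number added Gla and Naglu and changed no other member's call; by title number it added Naglu alone. For the other lists the block by column number and fits without 1 library were added after the values were seen. The block gave 5 higher genes for basophils and mast cells and 3 for mature macrophages. As lower genes it gave 7 for T and NK cells, 4 for B cells, 2 for other membrane proteins and 2 for regulators. Among other membrane proteins it added Mfsd12, Tmem192, Tpcn1 and Slc15a3 as higher, and among regulators Mitf and Fnip1. Fits without 1 library gave, as higher genes, 7 to 13 for other membrane proteins, 7 to 12 for tagging and delivery, 1 to 4 for mature macrophages, 2 to 4 for erythroid cells and 0 to 1 for late neutrophils. As lower genes they gave 1 to 2 for other hydrolases, 1 to 4 for tagging and delivery, 0 to 2 for regulators, 0 to 1 for B cells and 3 to 5 for T and NK cells. The causes were not tested. Without a given build and strand setting, counts of members that overlap other genes, such as Arsb, Ctsd and Ctsl, are limited by the unknown annotation, and the rarest member, Ctsf, by its depth.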
